A study of Homo sapiens with 16 samples.

Results

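The 33 genes described here encode core and linker histones and are those of the clustered histone gene families that could be counted in poly(A)-selected RNA. They were taken by symbol (H1-, H2AC, H2BC, H3C or H4C followed by a number) and by a minimum of 10 counts in at least 4 of the 16 libraries. Of 78894 rows in the table of counts, 73 carried such a symbol, and 33 passed the minimum: 4 of 10 H1 rows, 7 of 17 H2A rows, 11 of 18 H2B rows, 3 of 13 H3 rows and 8 of 15 H4 rows. Of the 40 rows under the minimum, 8 had no count in any library. H2BC9 and H4C16 were just inside the minimum, with 4 libraries at 10 counts or more, and H2AC7 was just outside it, with 3 libraries. The label "clustered" did not hold for every member: H1-10 lies alone on chromosome 3, and sums are given over the 31 members of the clustered families. H4C16 also lies alone, on chromosome 12.

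The cells were MCF10DCIS.com, a human breast line that forms lesions resembling ductal carcinoma in situ, grown as 3-dimensional cultures on matrigel. All groups share a single PCSK5-/- clone, which had received a tetracycline-regulated, V5-tagged PCSK5 allele and was kept as 1 polyclonal line per allele. The groups were the wildtype allele (WT), M452I, T288P, and T288P with 250 ng/ml recombinant GDF11 throughout (T288P+GDF11), each with 4 wells. All wells had 5 ng/ml EGF and, from day 4, 1 µg/ml doxycycline, and were harvested on day 8. Since the replicates were wells of 1 line, p-values measure the spread between wells only, and an allele cannot be told apart from its line.

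Most histone mRNA is made in S phase, when newly copied DNA must be packed into nucleosomes. These replication-dependent mRNAs end in a conserved stem-loop in place of a poly(A) tail, and the stem-loop is bound by SLBP, while NPAT switches on the genes in the nuclear body where they are read. Several of these genes also give longer, polyadenylated transcripts that run past the stem-loop, best known in differentiated or resting cells, and poly(A) selection keeps such transcripts and discards most of the others. The levels below are therefore those of the RNA that passed poly(A) selection, and say nothing of the total histone mRNA. Whether a counted read came from a molecule with a tail was not measured.

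The stem-loops and poly(A) signals given here are those of annotated transcript models, and the models of a gene can hold both. In GENCODE release 29 on GRCh38, the models of 20 of the 31 members found there hold the histone stem-loop, a run of 16 bases searched by its consensus on the transcript strand. Over the whole release, 34 of 58676 genes (0.0579%) hold it. A model that ends at the stop codon, as in 5 of the 31 members, cannot show the stem-loop. These counts therefore describe the models, and a gene without a match may still have a stem-loop. The first 5 lines below are stem-loops with 5 bases on each side, the 16 bases in capitals. The other 3 are the last 30 bases of a transcript, with the poly(A) signal (AATAAA or ATTAAA) in capitals.
H2BC21 stem-loop: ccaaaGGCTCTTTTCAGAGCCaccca
H2AC25 stem-loop: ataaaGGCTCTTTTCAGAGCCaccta
H3C6 stem-loop: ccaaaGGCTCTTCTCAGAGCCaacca
H4C8 stem-loop: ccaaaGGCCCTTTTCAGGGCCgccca
H4C14 stem-loop: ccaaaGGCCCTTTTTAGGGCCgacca
H2BC21 transcript end: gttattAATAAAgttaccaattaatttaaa
H2AC25 transcript end: tctgatATTAAAagtatttatgatctctaa
H1-10 transcript end: ttgggcacAATAAAgcgtttaaacctttca

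One core, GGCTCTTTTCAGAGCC, was found in 11 members of the H2A, H2B and H3 classes, with single variants in H2AC11 and H3C6. All 7 H4 stem-loops had another stem, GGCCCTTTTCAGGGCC in 4 genes and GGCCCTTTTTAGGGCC in 3. H2BC21 and H2AC25 carry both features: their models run 1729 and 390 bases past the stem-loop and end behind a poly(A) signal. H1-10 has the signal and no stem-loop.

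Most members had longer models than most rows under the minimum, though some did not: H3C8, under the minimum, has a model of 2411 bases, and the members H4C12 and H2BC12 have models of 312 and 381. A run of at least 100 bases past the stem-loop was annotated in 18 of 31 members (58.1%) and in 2 of 38 of the rows under the minimum (5.26%). A poly(A) signal within the last 45 bases was present in 20 members (64.5%) and 4 of the other rows (10.5%). In H4C11 that signal stands before the stem-loop, so it does not mark a longer transcript. Models without a 3′ UTR beyond the stop codon were 5 of 31 members (16.1%), among them H1-2 and H2BC12, and 26 of 38 other rows (68.4%). The longest model had a median of 1507 bases in members and 411 in the rows under the minimum. A longer model offers more bases for reads to fall on, the minimum itself was set on counts, and the annotation used for counting is not given in the sources used here, so the comparison is a description.

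**Figure D1:**
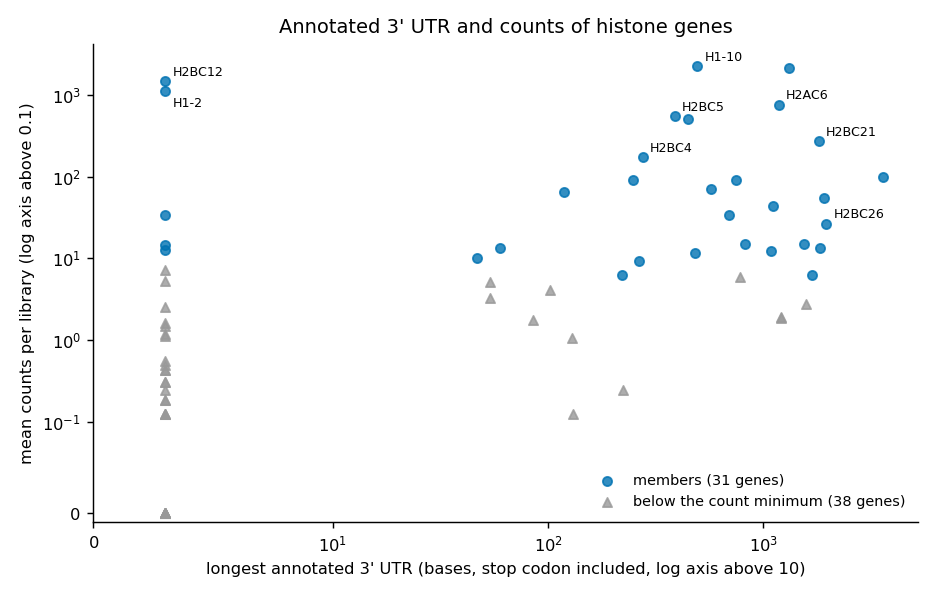
Longest annotated 3′ UTR of each histone gene (horizontal axis, bases, with the stop codon counted) against its mean counts per library (vertical axis), for 31 members (circles) and 38 rows under the minimum (triangles). Most triangles sit at the left edge, where no UTR follows the stop codon, while H1-2 and H2BC12 are counted highly from models of that kind.

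RefSeq promoters (GRCh38.p14) were found for 32 members, each window covering 250 bases before to 50 after the start. Letters were matched on both strands, and a gene counted if any of its windows matched. The octamer ATTTGCAT, known as the binding site of OCT1 in H2B promoters, was present in 8 of 11 H2B members, 0 of 8 H4 members and 2.19% of 27305 genes with a window of that length. CCAAT was present in 11 of 11 H2B members, 1 of 8 H4 members and 39.7% of all genes, and TATAAA in 7 of 11, 3 of 8 and 14%. Of the 12 members lower in T288P+GDF11 than in WT, 7 held the octamer, and of the other 20 with a window, 5 did (H2AC6, H2AC11, H2BC6, H2BC9 and H3C4). Of the 8 lower than in T288P, 4 held it, and H1-2, H2AC19, H2AC25 and H2BC5 did not. Among the 35 rows under the minimum with a window, 14 held it (40.0%). Most of the called members were H2B genes and none was an H4 gene, so the octamer cannot be told apart from class in these counts. The promoters of H2BC21, H2BC8 and H4C14 are shown for the difference between the H2B and H4 classes. Capitals mark the octamer, CCAAT and TATAAA or their reverse complements. H2BC21 is read from the minus strand of chr1:149886633-149886932, H2BC8 from the minus strand of chr6:26216639-26216938, and H4C14 from the plus strand of chr1:149832407-149832706.
H2BC21: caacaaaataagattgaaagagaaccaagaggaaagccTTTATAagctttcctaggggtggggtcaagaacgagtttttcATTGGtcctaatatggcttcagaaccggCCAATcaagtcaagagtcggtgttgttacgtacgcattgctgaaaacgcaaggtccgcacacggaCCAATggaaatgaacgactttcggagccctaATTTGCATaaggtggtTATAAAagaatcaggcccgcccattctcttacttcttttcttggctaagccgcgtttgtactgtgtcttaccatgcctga
H2BC8: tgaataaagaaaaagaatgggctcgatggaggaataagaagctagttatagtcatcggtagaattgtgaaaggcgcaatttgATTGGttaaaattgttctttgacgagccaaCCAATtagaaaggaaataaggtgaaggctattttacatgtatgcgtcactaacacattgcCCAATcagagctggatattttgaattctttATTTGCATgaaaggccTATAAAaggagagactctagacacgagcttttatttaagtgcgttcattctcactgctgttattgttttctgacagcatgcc
H4C14: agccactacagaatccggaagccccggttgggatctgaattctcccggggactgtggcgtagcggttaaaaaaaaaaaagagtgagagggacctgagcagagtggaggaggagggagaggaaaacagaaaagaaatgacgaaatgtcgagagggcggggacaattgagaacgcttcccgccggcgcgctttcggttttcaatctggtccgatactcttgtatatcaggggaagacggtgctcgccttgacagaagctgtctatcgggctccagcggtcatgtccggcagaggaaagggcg

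Both H2B windows held all the motifs and the H4C14 window held none. A match in these letters is not evidence of binding, and no match says only that the letters are not in the window. Some members share their promoter region with a gene on the other strand. The pairs and the bases between their starts were H2BC4 and H2AC6 (246), H2BC8 and H2AC8 (233), H2BC11 and H2AC11 (248), H2AC15 and H2BC15 (194), H2AC25 and H2BC26 (230), and H2BC21 with H2AC20 (236), the last being under the minimum.

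Library totals ran from 28.5 to 50.8 M counts, with 21777 to 25335 genes detected in each. The 33 members together held 0.0213% to 0.036% of a library, so most are measured from few reads: the 5 with the most counts held 72.2% of the members' counts. The targeted gene PCSK5 stood at 25.3 to 66.8 CPM (counts per M counts, after TMM scaling) in all wells, and reads of the added allele are not separated there from those of the disrupted gene, so it does not check the knockout. The epithelial markers EPCAM, CDH1, KRT5 and KRT17 were high in every group (for KRT5, group means of 1731 to 2346 CPM), while the endothelial and stromal markers VWF, PDGFRB and COL3A1 were at 0 to 0.124 CPM in every well. Of the 12 listed markers of stromal and blood cells, 4 could be tested. CD68, a lysosomal protein listed here as a blood cell marker, stood at 117 to 230 CPM without GDF11 and at 98.4 to 125 with it. It fell (-0.59 ± 0.18 against T288P, adjusted p = 0.0344). In cultures of a single cell line, its level is not evidence of blood cells. PECAM1, an endothelial adhesion protein, stood at 0.313 to 0.869 CPM in T288P and 1.33 to 2.74 with GDF11, and rose (1.72 ± 0.37, adjusted p = 0.00633). COL1A1, at 3.95 to 7 CPM, and DCN, at 0 to 1.24 CPM, were not called against T288P, and DCN rose against WT. The summed level of the list was 108 to 134 CPM with GDF11 and 150 to 217 in T288P, nearly all of it CD68, and its part in the histone differences was not tested. The M452I well 4 stood apart, with 7.43% of its counts in cytosolic ribosomal protein genes against 10.1% to 10.4% in the other M452I wells, and T288P well 1 stood apart from its group, with 9.74% against 8.47% to 8.81%. Both touch the results below, and main counts are given with and without them. T288P+GDF11 well 2 also differed in this share, at 9.99% against 8.53% to 9.13% in its group. It was left out only when each library was left out in turn.

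With added GDF11, the level of histone RNA that passed poly(A) selection was lower. The summed level of the 31 clustered members was 99.8, 121, 114 and 128 CPM in the T288P+GDF11 wells, against 229, 146, 186 and 164 CPM in T288P, 190, 186, 196 and 192 CPM in WT, and 214, 264, 226 and 141 CPM in M452I. Every GDF11 well was below every well of the other 3 groups. The T288P+GDF11 mean was 63.9% of the T288P mean and 60.5% of the WT mean. The WT wells lay close together, 191 ± 4.08 CPM (SD, n = 4), while M452I (211 ± 51.7, n = 4) and T288P (181 ± 35.6, n = 4) spread widely. In a bulk sample, fewer cells with these transcripts and fewer transcripts per cell cannot be told apart.

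By class, the linker H1 genes of the clusters went from a mean of 32.3 CPM in T288P to 14.5 CPM with GDF11, the H2A genes from 59.1 to 37.4 CPM, and the H2B genes from 79.9 to 54.0 CPM. The sums for H3 (2.11 and 2.48 CPM) and H4 (7.56 and 7.3 CPM) overlapped between the groups. The few H3 and H4 counts come mostly from a handful of genes, and CPM is not scaled by length, so levels are compared here between wells and not between genes.

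**Figure D2:**
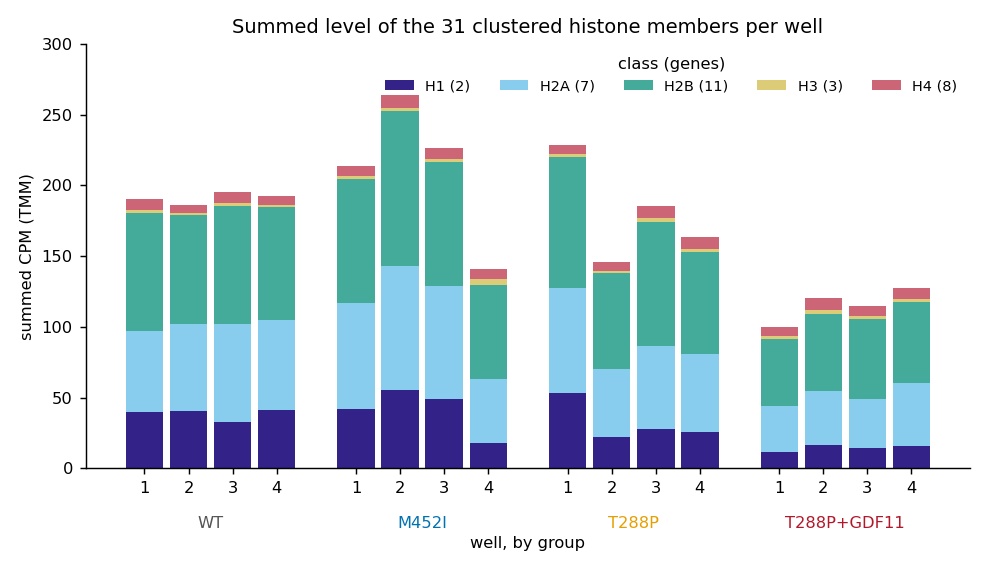
Summed CPM of the 31 clustered histone members in each of the 16 wells (bars from 0, numbered within groups), split by class, with the number of genes in the legend. The 4 T288P+GDF11 wells reach 99.8 to 128 CPM, below all other wells, and H1, H2A and H2B make up nearly the whole bar in every group.

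In the edgeR model of all 16790 genes tested, 32 of the 33 members could be tested (not H4C16), and a member was called at a Benjamini-Hochberg adjusted p under 0.05. With GDF11 against T288P, 8 of 32 members fell and 0 rose, where 7.88% of all genes tested fell and 5.07% rose (12.9% in either direction). The 8 were H1-2, H2AC19, H2AC25, H2BC4, H2BC5, H2BC8, H2BC12 and H2BC21. In the comparison with WT, which uses the same GDF11 wells, 12 of 32 fell and 0 rose, against 15.1% of all genes lower, 13.8% higher and 28.9% called, and H1-10, H2AC8, H2BC11 and H2BC18 joined the 8. The median log2 fold change of the members was -0.65 against T288P and -0.71 against WT, where the medians of all genes tested were -0.02 and 0.02. With all wells the members' shares, 25% and 37.5%, were above those of all genes. Leaving out a single well could bring them below the share of all genes called, with values given after the members. The wells were T288P well 1 and T288P+GDF11 well 1, and WT well 3 in the comparison with WT.

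Among the linker histones, which bind the DNA between nucleosomes, only H1-2 was called in both comparisons. H1-2, a replication-dependent subtype at chr6:26055740-26056470, stood at 38.8, 39.8, 32.5 and 41.1 CPM in WT, 41.4, 54.8, 49.0 and 17.9 in M452I, 53.2, 21.6, 27.8 and 24.8 in T288P, and 11.5, 16.2, 13.9 and 15.8 in T288P+GDF11. All GDF11 wells were below all T288P and WT wells, and M452I well 4 and T288P well 1 differed from the other wells of their groups. The log2 fold change was -1.15 ± 0.31 (SE) against T288P (edgeR adjusted p = 0.0278) and -1.41 ± 0.31 against WT (adjusted p = 0.00423). Without T288P replicate 1 the first became -0.77 (adjusted p = 0.106). H1-4, the other H1 gene of the clusters, had 0.133 ± 0.0323 CPM with GDF11 and 0.422 ± 0.233 in T288P (SD, n = 4). Its log2 fold change of -1.67 ± 0.69 against T288P was further from 0 than that of H1-2 and was not called (adjusted p = 0.116).

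H1-10, a linker histone outside the clusters, stood at 69.3, 66.2, 62.2 and 66.8 CPM in WT, 63.6, 82.3, 77.6 and 47.8 in M452I, 77.0, 51.3, 65.6 and 55.9 in T288P, and 37.2, 58.8, 45.3 and 50.8 in T288P+GDF11. Its GDF11 wells were all below the WT wells and overlapped the T288P wells, with log2 fold changes of -0.46 ± 0.16 (adjusted p = 0.0383) and -0.38 ± 0.16 (adjusted p = 0.13).

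H2A and H2B pair as dimers on the outside of the nucleosome core. Of the 7 H2A members, H2AC19 and H2AC25 fell in both comparisons and H2AC8 against WT alone. H2AC19, on chromosome 1, stood at 19.8, 18.7, 18.9 and 21.9 CPM in WT, 22.9, 30.9, 22.6 and 10.2 in M452I, 27.1, 11.1, 17.99 and 14.1 in T288P, and 6.15, 8.82, 7.09 and 8.71 in T288P+GDF11. The GDF11 wells were below every other well, and the log2 fold change was -1.19 ± 0.29 against T288P (adjusted p = 0.0132) and -1.36 ± 0.29 against WT (adjusted p = 0.00221). H2AC18 is a near-identical copy whose counts were erratic between wells of a group (0 to 8.71 CPM in WT), so reads may be split between the copies. With the counts of both summed, the log2 fold change was -1.25 ± 0.28 (adjusted p = 0.00837) and -1.39 ± 0.28 (adjusted p = 0.00172).

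H2AC25, in a small histone cluster at the far end of chromosome 1, stood at 14.3, 16.1, 17.8 and 15.3 CPM in WT, 17.4, 22.01, 17.6 and 12.1 in M452I, 17.5, 11.8, 14.7 and 12.4 in T288P, and 7.06, 8.99, 8.14 and 12.5 in T288P+GDF11. GDF11 well 4 overlapped the T288P wells and the other 3 did not, with a log2 fold change of -0.62 ± 0.19 (adjusted p = 0.034), and of -0.8 ± 0.18 against WT (adjusted p = 0.00376). Its partner across the shared promoter, H2BC26, had 0.656 ± 0.479 CPM with GDF11 and 0.579 ± 0.292 in T288P (SD, n = 4).

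H2AC8 was low in both groups of the T288P line. It stood at 2.32, 2.26, 3.44 and 3.45 CPM in WT, 1.52, 2.61, 2.26 and 0.935 in M452I, 1.35, 0.563, 1.18 and 1.05 in T288P, and 0.589, 1.16, 1.49 and 1.77 in T288P+GDF11. All wells of the T288P line, with or without GDF11, were below all WT wells. Against WT its log2 fold change was -1.2 ± 0.36 with GDF11 (adjusted p = 0.019) and -1.48 ± 0.37 without it (adjusted p = 0.272). Against T288P the value with GDF11 was 0.28 ± 0.37. H2AC6, the H2A gene with the most counts, stood at 19.3, 22.1, 19.2 and 21.1 CPM in WT, 21.9, 27.1, 25.4 and 18.9 in M452I, 26.3, 20.9, 21.7 and 19.7 in T288P, and 17.1, 17.0, 16.3 and 19.4 in T288P+GDF11. The GDF11 wells of H2AC6 were just below the T288P wells, and the difference of -0.34 ± 0.12 did not pass (adjusted p = 0.0617).

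H2B was the class with most calls, 5 of 11 members against T288P and 7 of 11 against WT, and with median log2 fold changes of -1.03 and -1.05. H2BC21, whose stem-loop, long 3′ end and promoter are printed above, stood at 7.97, 12.1, 11.5 and 11.4 CPM in WT, 7.67, 13.1, 10.2 and 4.43 in M452I, 11.4, 4.31, 6.92 and 6.71 in T288P, and 2.41, 2.45, 2.63 and 4.4 in T288P+GDF11. GDF11 well 4 was just above the lowest T288P well, and the other 3 GDF11 wells were below every well of the other groups. The log2 fold change was -1.3 ± 0.32 (adjusted p = 0.0123) against T288P and -1.86 ± 0.32 (adjusted p = 0.000403) against WT, the smallest adjusted p among the members in both comparisons.

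H2BC8 was the member whose call against T288P held when either T288P well 1 or GDF11 well 1 was left out. It stood at 1.23, 1.59, 1.87 and 1.82 CPM in WT, 1.2, 1.39, 1.43 and 0.875 in M452I, 1.22, 1.19, 1.39 and 1.53 in T288P, and 0.794, 0.547, 0.645 and 0.558 in T288P+GDF11. The GDF11 wells lay below all others, with log2 fold changes of -1.06 ± 0.26 (adjusted p = 0.0127) and -1.35 ± 0.26 against WT (adjusted p = 0.000955). H2BC21 was called without GDF11 well 1 (adjusted p = 0.0474) and not without T288P well 1 (adjusted p = 0.059).

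H2BC4 stood at 5.08, 4.86, 5.22 and 3.84 CPM in WT, 5.83, 10.9, 7.39 and 3.86 in M452I, 8.34, 3.12, 5.05 and 3.95 in T288P, and 1.47, 2.49, 2.33 and 2.82 in T288P+GDF11. Its GDF11 wells were below all others, with a log2 fold change of -1.16 ± 0.31 against T288P (adjusted p = 0.0215) and -1.06 ± 0.31 against WT (adjusted p = 0.017). Without T288P replicate 1 the first was -0.8 (adjusted p = 0.117). H2AC6, read from the same promoter region the other way, had the smaller value of -0.34 given above.

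H2BC12, the H2B gene with the most counts, changed little in size. It stood at 40.8, 38.7, 39.0 and 42.7 CPM in WT, 48.9, 52.9, 46.2 and 37.9 in M452I, 47.6, 42.8, 41.3 and 38.3 in T288P, and 30.1, 35.7, 35.5 and 29.3 in T288P+GDF11. The GDF11 wells were below all others, and the log2 fold change was -0.38 ± 0.1 (adjusted p = 0.0231) and, against WT, -0.3 ± 0.1 (adjusted p = 0.0358). H2BC5 stood at 19.8, 14.1, 16.4 and 13.7 CPM in WT, 18.9, 23.6, 16.7 and 13.7 in M452I, 17.7, 11.1, 25.7 and 13.99 in T288P, and 8.92, 8.93, 9.9 and 12.6 in T288P+GDF11. One GDF11 well overlapped T288P in H2BC5, with log2 fold changes of -0.76 ± 0.22 (adjusted p = 0.0301) and -0.67 ± 0.22 (adjusted p = 0.0297).

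Against WT alone, H2BC11 and H2BC18 also fell. H2BC11 stood at 3.04, 2.08, 3.44 and 1.63 CPM in WT, 2.12, 2.36, 2.17 and 1.36 in M452I, 3.06, 1.3, 1.84 and 1.71 in T288P, and 1.3, 1.29, 1.12 and 1.24 in T288P+GDF11. Its GDF11 wells were below all others, by little in T288P well 2, and the log2 fold change was -1.04 ± 0.29 against WT (adjusted p = 0.0121). H2BC18 stood at 0.315, 0.624, 1.01 and 0.455 CPM in WT, 0.318, 0.806, 0.526 and 0.573 in M452I, 0.197, 0.13, 0.522 and 0.449 in T288P, and 0.118, 0.0656, 0.149 and 0.279 in T288P+GDF11. The GDF11 wells of H2BC18 were below the WT wells and overlapped the T288P wells, with a log2 fold change of -1.99 ± 0.58 against WT (adjusted p = 0.015), on a mean of 14.9 counts per library. H2BC15 and H2BC26 did not follow: against T288P their log2 fold changes were 0.05 ± 0.28 and 0.15 ± 0.55.

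**Figure D3:**
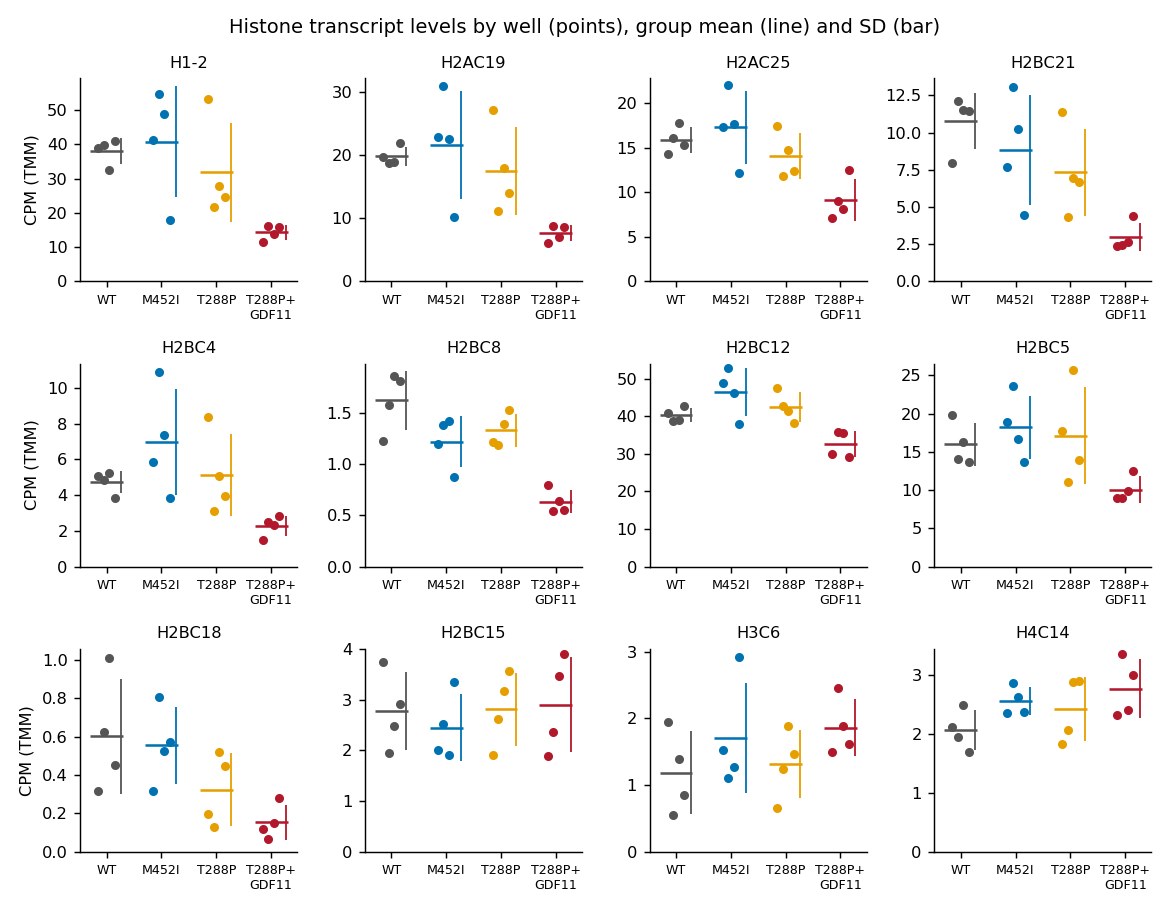
CPM (vertical axes, from 0) of 12 histone genes in each well (points), with the group mean (line) and SD (bar, n = 4). In the first 9 panels T288P+GDF11 is the lowest group, while H2BC15, H3C6 and H4C14 overlap between all groups.

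H3 and H4 form the tetramer at the centre of the nucleosome, and neither class had a called member in any comparison. H3C6 stood at 1.95, 0.546, 1.4 and 0.845 CPM in WT, 1.52, 1.11, 1.27 and 2.93 in M452I, 0.657, 1.24, 1.88 and 1.47 in T288P, and 1.5, 2.45, 1.89 and 1.61 in T288P+GDF11. All groups of H3C6 overlapped, and the log2 fold change was 0.51 ± 0.4 against T288P and 0.65 ± 0.4 against WT. H3C10 stood at 0.258, 0.572, 0.54 and 0.553 CPM in WT, 0.212, 0.389, 0.504 and 0.422 in M452I, 0.427, 0.238, 0.8 and 0.329 in T288P, and 0.471, 0.219, 0.372 and 0.372 in T288P+GDF11. H3C4 stood at 0.315, 0.598, 0.63 and 0.683 CPM in WT, 0.283, 0.778, 0.526 and 0.332 in M452I, 0.953, 0.065, 0.104 and 0.3 in T288P, and 0.441, 0.197, 0 and 0.403 in T288P+GDF11. Both genes overlapped between all groups on means of 15 and 14.8 counts per library, with log2 fold changes against T288P of -0.31 ± 0.47 (H3C10) and -0.45 ± 0.81 (H3C4).

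H4C14 and H4C15 are near-identical copies and had near-identical counts. H4C14 stood at 2.12, 1.95, 2.5 and 1.69 CPM in WT, 2.37, 2.86, 2.63 and 2.38 in M452I, 1.84, 2.08, 2.89 and 2.91 in T288P, and 2.32, 3.37, 2.41 and 3.01 in T288P+GDF11. H4C15 stood at 2.18, 1.85, 2.56 and 1.76 CPM in WT, 2.05, 3.22, 2.54 and 2.44 in M452I, 1.94, 2.25, 2.96 and 2.76 in T288P, and 2.24, 3.39, 2.7 and 2.91 in T288P+GDF11. With the copies summed, the log2 fold change with GDF11 was 0.19 ± 0.19 against T288P (adjusted p = 0.541) and 0.43 ± 0.19 against WT (adjusted p = 0.0954). H4C8 stood at 1.46, 0.598, 1.46 and 0.845 CPM in WT, 0.919, 1.08, 1.1 and 0.935 in M452I, 0.46, 0.607, 1.6 and 1.29 in T288P, and 0.412, 0.591, 0.819 and 0.589 in T288P+GDF11. The groups overlapped, with -0.7 ± 0.4 against T288P. The other 4 H4 members tested had log2 fold changes of -0.94 (H4C5), 0.61 (H4C9), -1.35 (H4C11) and -0.56 (H4C12) against T288P, none of them called. The median of the 7 tested H4 members was -0.565 against T288P, with 4 below 0, beside -0.622 for H2A. Against WT the medians were -0.173 for H4 and -0.796 for H2A. Most H4 members had few counts, so the lack of a call does not show that they were unchanged.

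**Figure D4:**
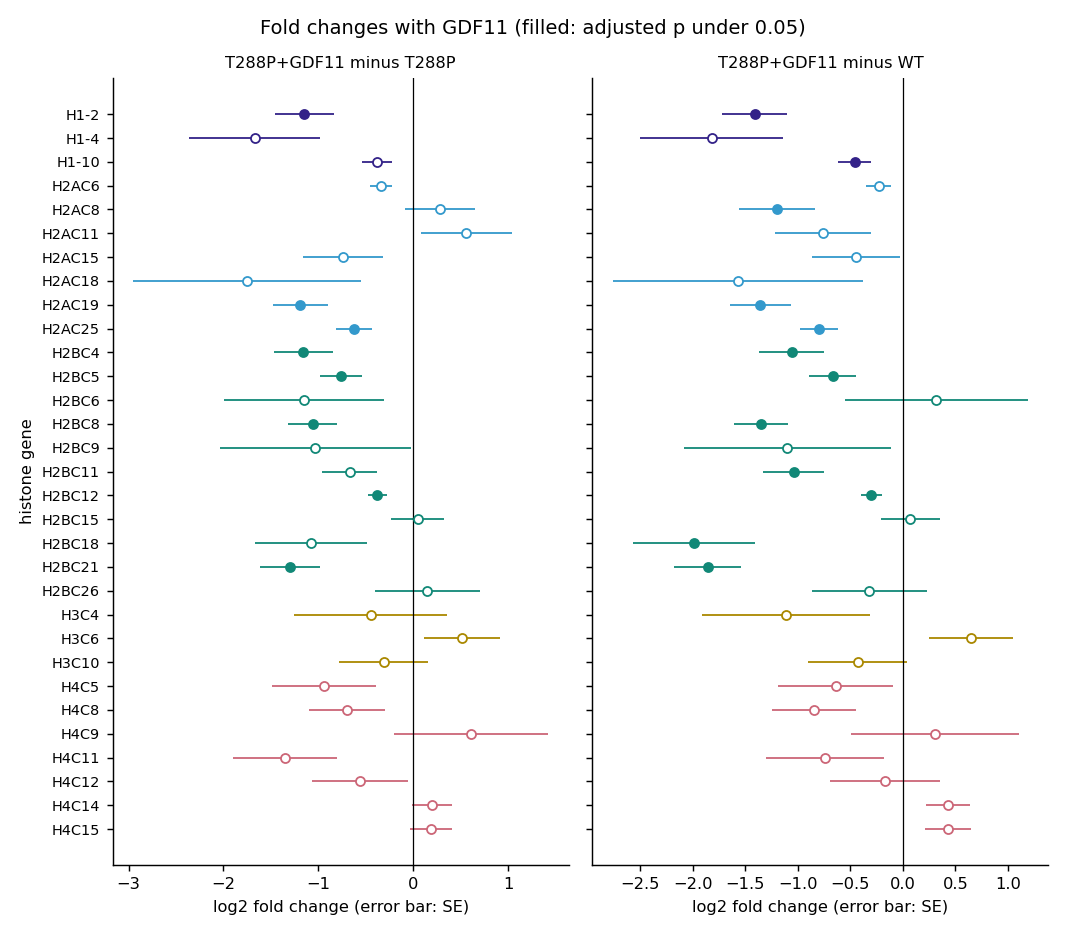
Log2 fold change (point) and its SE (bar) of 31 of the 32 tested members, with GDF11 against T288P (left) and against WT (right), coloured by class, filled where the adjusted p is under 0.05. The filled points all lie left of 0, at -0.3 to -1.99, and none is an H3 or H4 gene; both panels use the same GDF11 wells.

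Separation of the wells was also counted. All GDF11 wells were below all T288P wells in 8 members, where 11.8% of all genes tested showed this, and below all WT wells in 12 members (17.4% of all genes), the same 12 that were called. Against T288P, H2AC6, H2BC11 and H4C11 showed this separation without a call, while H2AC25, H2BC5 and H2BC21 were called with 1 overlapping GDF11 well each.

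Single wells carried much of the comparison with T288P. Without T288P replicate 1 only H2BC8 was called, 3.03% of the members where 5.91% of all genes were called and 3.64% fell. Without T288P+GDF11 replicate 1 it was 2 members (6.06%), where 6.92% of all genes were called and 4.53% fell. Without replicate 2 of that group it was 5 (15.6%, against 9.64% of all genes called), and without replicate 3 it was 4 (12.5%, against 7%). In a fit that left out M452I replicate 4 together with T288P replicate 1, 7 members fell against T288P (13.7% of all genes called) and 13 against WT (36.3%). Against WT, the count was 7 without T288P+GDF11 replicate 1 (21.2%, where 21.8% of all genes were called and 12% fell) and 8 without WT replicate 3 (25%, where 26.4% were called and 12.9% fell). Without any other single well of these groups it was at least 9, or 27.3% to 34.4% of members against 21.4% to 25.4% of all genes called. So without T288P replicate 1 alone the members' share was below both values for all genes. Without M452I replicate 4 as well, a choice made after seeing the values, it was above both (21.9%, against 13.7% called and 8.37% lower). Without T288P+GDF11 replicate 1 or, against WT, WT replicate 3, the share was above that of all genes that fell and below that called. The direction of the called members was lower in all these fits.

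The alleles alone gave no call. M452I against WT had 0 of 32 members called (0.0238% of all genes were), 0 also by DESeq2 and limma-voom, and 0 with an unadjusted p under 0.05 (6.3% of all genes were under it). T288P against WT had 0 of 32 called (0.0417% of all genes), with an unadjusted p under 0.05 in 2 members, H2AC8 and H2AC11, both lower (8.49% of all genes were under it, 4.54% lower), and 1 call by DESeq2 against 0 by limma-voom. M452I against T288P had 0 called (0.00596% of all genes), 0 by both other tools, and 1 unadjusted p under 0.05 (2.18% of all genes), that of H2AC8. Both comparisons with WT share the WT wells. The members' log2 fold changes had medians of 0.00 for M452I against WT and -0.1 for T288P against WT, beside 0.03 and 0.02 over all genes, and ranged from -0.64 to 1.28 and from -1.48 to 1.47.

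Of these counts, those involving T288P depended on the wells that stood apart. With M452I replicate 4 and T288P replicate 1 left out, 6 members were higher in M452I than in T288P (14.1% of all genes were then called): H1-2, H2AC8, H2AC19, H2AC25, H2BC4 and H2BC21. For H1-2 the log2 fold change was then 0.97 ± 0.13 (adjusted p = 0.000518). In the same fit 3 members were lower in T288P than in WT (4.06% of all genes called), H1-2 by -0.62 ± 0.13, H2AC8 by -1.64 ± 0.36 and H2BC21 by -0.85 ± 0.24, and 0 differed between M452I and WT (3.72% of all genes). This fit was chosen after the values had been seen. It left out the M452I well with the lowest summed histone level of its group (140.5 CPM). The T288P well it left out had the highest of its group (228.5 CPM). A higher M452I than T288P was therefore in part set by the choice of wells, and these calls are a description. Tested over all 4 groups together, 9 members differed with all wells (19.9% of all genes called) and 13 without those wells (41.0%).

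In some wells most members deviated from their group in 1 direction, and in others they did not. M452I well 2 was the highest of its group in 22 of 32 members, where it was the highest in 20.6% of all genes tested, and M452I well 4 was the lowest in 17, against 34.5% of all genes. T288P well 2 was the lowest in 17 (22.8% of all genes) and T288P+GDF11 well 1 in 18 (25.8%). The median log2 difference of the members in a well from the mean of the group's other wells was 0.41 in M452I well 2, -0.52 in M452I well 4, -0.35 in T288P well 2 and -0.35 in T288P+GDF11 well 1, while that of all genes was between -0.03 and 0.05 in every well. In 8 of the 16 wells the members' median lay within 0.1 of 0, and WT well 1 was the highest of its group in 9 members and the lowest in 10. Joint movement of the members was not tested. Near-identical copies share reads and divergent pairs share a promoter region, so members are not independent of each other.

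**Figure D5:**
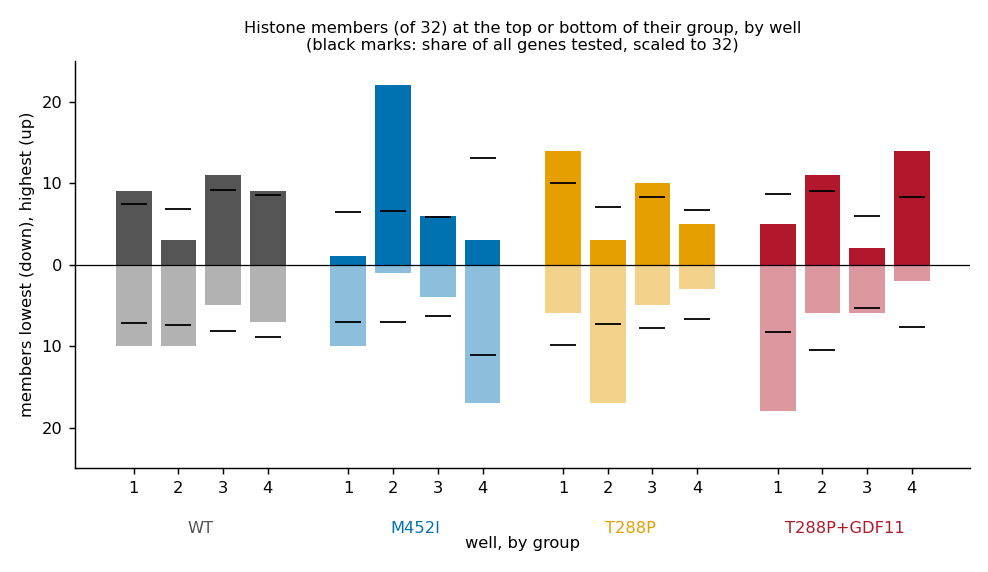
Number of the 32 tested members that are the highest (upward bars) or lowest (downward bars, lighter) of the 4 wells of their group, by well, with black marks at the share expected from all genes tested. M452I well 2 reaches 22 members at the top, and M452I well 4, T288P well 2 and T288P+GDF11 well 1 reach 17, 17 and 18 at the bottom.

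RNAs without a poly(A) tail also varied between wells. RN7SK, a nuclear RNA that holds back transcription elongation, stood at 4.5, 9.35, 7.09 and 8.91 CPM in WT, 7.32, 7.75, 7.39 and 3.89 in M452I, 9.07, 5.09, 7.17 and 7.25 in T288P, and 6.77, 5.58, 7.44 and 5.02 in T288P+GDF11. RMRP, the RNA of an RNA-processing ribonucleoprotein, stood at 3.21, 5.09, 2.86 and 4.13 CPM in WT, 4.1, 4.14, 4.08 and 2.02 in M452I, 3.78, 2.38, 2.12 and 2.91 in T288P, and 3.35, 2.04, 2.53 and 1.95 in T288P+GDF11. Both were lowest of their group in M452I well 4, the well low in histones, and highest in T288P in well 1, the well high in H1-2. The summed level of the 32 listed small RNAs was 26.5 CPM in M452I well 4 against 50.8 to 55.3 in the other M452I wells, and 60.0 in T288P well 1 against 34.7 to 44.5. Of the 10 that could be tested, 0 passed with GDF11 against T288P (median log2 fold change -0.19), where 12.9% of all genes were called. Against WT, where 28.9% were called, 1 fell, SNORD17 (-1.75 ± 0.58, adjusted p = 0.0308). The part of this variation in the histone differences was not tested.

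Replication-independent histone genes gave few calls. Against T288P, the shares called among genes of histone processing and of histone assembly were near that of all genes. Of 11 tested replication-independent histone genes, among them H2AZ1, H3-3B and the member H1-10, 0 passed with GDF11 against T288P (median -0.15). Only H1-10 passed against WT, so that call is the one already given among the members. SLBP, which binds the stem-loop, had 24.4 ± 1.46 CPM with GDF11 and 24.4 ± 0.947 in T288P (SD, n = 4), a log2 fold change of 0.00 ± 0.1. NPAT had 17.5 ± 2.51 and 15.6 ± 1.83 CPM, 0.17 ± 0.12 (adjusted p = 0.409). Of 27 genes of histone mRNA processing and poly(A) site cleavage, 2 rose and 1 fell with GDF11 against T288P: CPSF3, the endonuclease that cleaves both kinds of 3′ end, by 0.41 ± 0.09 (adjusted p = 0.00689), CSTF2T, a cleavage stimulation factor, by 0.72 ± 0.22 (adjusted p = 0.0351), and UPF1, a helicase used in histone mRNA decay, by -0.57 ± 0.09 (adjusted p = 0.000743). In CPSF3 and UPF1 the GDF11 wells did not overlap any other well: UPF1 stood at 45.3, 49.1, 48.7 and 44.7 CPM with GDF11 and at 63.1 to 88.6 CPM elsewhere. Called genes of this list were 11.1% against T288P, beside 12.9% of all genes. Against WT, 5 of the 27 rose and 2 fell (25.9%, beside 28.9% of all genes).

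Of 21 histone chaperones and assembly factors, 2 rose and 1 fell against T288P, where 12.9% of all genes were called. NASP, a chaperone that holds soluble H3 and H4, rose by 0.37 ± 0.09 (adjusted p = 0.0104), MMS22L, part of a complex that acts at damaged replication forks, by 0.51 ± 0.16 (adjusted p = 0.039), and SSRP1, a subunit of FACT, fell (-0.27 ± 0.08, adjusted p = 0.0306), so that 14.3% were called. Against WT, 5 rose and 3 fell (38.1%, beside 28.9% of all genes and 37.5% of the histone members).

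Genes of the cell cycle moved in both directions. Of 45 tested S phase genes, 3 rose and 1 fell with GDF11 against T288P (median 0.04), 8.89% called beside 12.9% of all genes. Against WT, 10 rose and 1 fell (median 0.08), 24.4% called beside 28.9% of all genes. MCM10 and MCM3, which act at replication origins, rose by 1.46 ± 0.3 (adjusted p = 0.00466) and 1.01 ± 0.3 (adjusted p = 0.0335). PCNA, the sliding clamp of DNA polymerases, stood at 9.81, 11.7, 8.95 and 12.8 CPM in WT, 14.5, 13.8, 16.3 and 12.9 in M452I, 14.1, 16.8, 12.5 and 16.6 in T288P, and 21.5, 19.01, 22.2 and 18.4 in T288P+GDF11. The GDF11 wells of PCNA were above all others, with a log2 fold change of 0.43 ± 0.13 against T288P (adjusted p = 0.0354). RRM2, a subunit of ribonucleotide reductase, fell (-0.6 ± 0.14, adjusted p = 0.0106).

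Of 28 genes of G2 and mitosis, 1 rose and 3 fell against T288P (median -0.1), 14.3% called beside 12.9% of all genes. Against WT, 1 rose and 9 fell (median -0.21), 35.7% called beside 28.9% of all genes. TPX2, a spindle factor, fell (-0.45 ± 0.08, adjusted p = 0.00241), as did CDC20, an activator of the anaphase-promoting complex (-1.29 ± 0.26, adjusted p = 0.00609), while HMMR rose (1.03 ± 0.2, adjusted p = 0.00329). MKI67, a proliferation marker, had 44.4 ± 8.79 CPM with GDF11, 58.9 ± 5.03 in T288P and 73.1 ± 9.02 in WT (SD, n = 4), with a log2 fold change of -0.41 ± 0.14 against T288P (adjusted p = 0.056) and -0.72 ± 0.14 against WT (adjusted p = 0.000897). CDC20 was low in M452I well 4 (48.0 CPM, with wells 1 to 3 at 105.0 to 119), the well low in H1-2. CDC20 was high in T288P well 1 (131 CPM, with wells 2 to 4 at 63.5 to 71.9), the well high in H1-2. The list did not move as 1 in M452I well 4: TPX2 was lowest of the group there (55.7 CPM) and MKI67 highest (67.1 CPM). Summed over the 28 genes, M452I well 4 had 973 CPM, inside the span of wells 1 to 3 (930 to 976). T288P well 1 had the highest sum of its group, 1030 CPM, with wells 2 to 4 at 891 to 960. The epithelial markers had a summed level of 3994 to 5214 CPM with GDF11 and 5950 to 8222 CPM in T288P. Of these markers, 4 of 8 were lower and 0 higher, where 7.88% of all genes fell. Of 11 tested markers of differentiation and quiescence, 5 fell and 0 rose against T288P, where 7.88% of all genes fell. The 5 were led by SPRR1A, a precursor of the cornified envelope (-1.68 ± 0.16, adjusted p = 5.19e-06). Of 53 cytosolic ribosomal protein genes, 0 were called in either comparison with GDF11, where 12.9% (against T288P) and 28.9% (against WT) of all genes were. The part of cell cycle or cell state in the histone differences was not tested.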

How the data were processed

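Poly(A)-selected RNA of 16 wells was sequenced as read pairs, per the labels' protocols. The authors deposited 1 table of raw gene counts, whole numbers without normalization. HISAT2 (version not given), StringTie 2.2.1 and GRCh38 are named, per the submitters' processing notes, while for the counting step, the annotation release and strandedness nothing is given in the sources used here. Genes with 1 count were 0.974 to 1.1 times as many as genes with 2, so mates may have been counted separately. Each library matched 1 column and 0 columns were left unused.

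R 4.3.3 and edgeR 4.0.16 were used: TMM factors, filterByExpr (minimum count 10), robust quasi-likelihood F tests in a single model of 4 groups without a covariate, and Benjamini-Hochberg adjustment over 16790 genes. The SE was derived from the fold change and F. CPM uses library totals times TMM factors. The test was checked on simulated counts. Alternatives were RLE factors, DESeq2 1.42.0, limma-voom (limma 3.58.1), other count filters, 2-group fits, a block for the replicate number, and leaving out each library. Fits chosen after seeing the data left out M452I replicate 4 and T288P replicate 1 together, summed near-identical copies, or took the share of ribosomal protein counts as a covariate.

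Members, gene lists and tests were chosen with earlier results of these data known. Values in every well are given for members called in any comparison, for the 3 members of each class with the highest mean, and for H1-10. An item that the rule takes is not reported here. From each list the called genes with the smallest adjusted p were named, up to 3, with SLBP, NPAT, PCNA, MKI67, RN7SK, RMRP and PCSK5 regardless of the test. H1-4, H2AC18, H2BC15, H2BC26 and the H4 genes with single values lie outside that rule and were named after their values were seen, as were the marker genes.

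Sequences are from GENCODE release 29 transcripts (31 of 33 members matched by gene ID, not H2AC18 and H2AC19) and RefSeq promoters of GRCh38.p14, with spans from RefSeq. By those spans 8 members overlap another gene, among them H2AC19 with H4C15, and H2BC12 with H4C9, so reads there cannot be assigned without a known strand setting.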

Additional observations from a re-analysis of the deposited data

Results flagged for a closer look

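In 3 of 104 sets of 4 wells examined, a single well lay far from the other 3 of its group by Dixon's test, and chance alone gives about 1 in 20. H2BC21 stood at 7.97 CPM in WT well 1 and at 11.4 to 12.1 CPM in the other WT wells. H2BC21 also stood at 4.4 CPM in T288P+GDF11 well 4 and at 2.41 to 2.63 CPM in the other wells of that group. H3C10 stood at 0.258 CPM in WT well 1 and at 0.54 to 0.572 CPM in the other WT wells.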

How the results depend on the processing

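The called members' fold changes were recomputed under 359 alternatives in all: 297 kept the direction and the call, 62 kept the direction and lost the call, and 0 reversed. The count of members lower with GDF11 than in T288P, 8, was 3 without a filter on low counts (9.09% of members, where 3.58% of all genes were called), and 1 to 8 when single libraries were left out, with 5.91% to 11.2% of all genes called. Against WT the count, 12, was 7 to 11 when single libraries were left out, with 21.4% to 26.4% of all genes called. Over all groups the count, 9, was 6 to 13, with 11.2% to 36.8% of all genes called. The 13 was found without M452I replicate 4 (39.4% of members, where 36.8% of all genes were called). With the ribosomal share as a covariate, 10 members were lower with GDF11 than in T288P (31.2%, where 29.6% of all genes were called and 17.2% fell). Against WT that fit called 14 lower and 1 higher (46.9%, where 44.8% of all genes were called and 23.3% fell). For T288P against WT, 0 became 1 by DESeq2 (0.459% of all genes called) and 1 with the ribosomal share as a covariate (1.69%). It became 3 without M452I replicate 4 and T288P replicate 1 (4.06%). For M452I against T288P, 0 became 6 without both (14.1%), which were the wells lowest in M452I and highest in T288P in summed histone level. The cause was not tested. For the 3 allele comparisons, leaving out any single library left 0 calls.

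The summed level was 185 CPM in WT by library totals alone (191 with TMM). Without the member with the highest mean, H2BC12, the sum fell by construction to 151 in WT, 138 in T288P and 82.9 CPM in T288P+GDF11, and with members of at least 50 counts in 4 libraries to 184 in WT. Leaving out single wells gave 189 to 193 CPM in WT, 193 to 235 in M452I, 165 to 193 in T288P and 112 to 121 in T288P+GDF11.

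With the replicate number as a block, 5 members were lower with GDF11 than in T288P (15.6%, where 10.9% of all genes were called and 6.49% fell), and 12 than in WT (37.5%, against 27.2% and 14.2%). The numbers did not pair the wells: deviations of same-numbered wells from their group means correlated at -0.27 to 0.26 (mean -0.02), and 1 of 16 wells correlated best with its own number. Depth limits the members of about 10 to 15 counts per library, most of H3 and H4.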
